A study of Mus musculus with 10 samples.

Results

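The interstitial collagens examined here were 9 genes chosen by name, out of 30319 gene symbols with values: Col1a1, Col1a2, Col3a1, Col5a1, Col5a2, Col5a3, Col6a1, Col6a2 and Col6a3. All 9 had a row and all 9 were among the 16932 genes tested. Types I, III and V are fibrillar collagens. Their chains wind into a long triple helix, procollagen ends are cut off outside the cell, and the helices assemble side by side into fibrils in which type III and type V mix with type I. Type VI collagen is built from 3 different chains, forms beaded microfibrils rather than banded fibrils, and surrounds fat cells in adipose tissue, where it is made by adipocytes as well as by fibroblasts.

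The difference between the fibrillar chains and type VI is written in their coding sequences, because a collagen triple helix needs glycine at regular steps, 1 residue in every 3. The first 72 bases of the longest uninterrupted glycine repeat are shown for 4 members whose values matter most below. They come from the GENCODE M21 coding sequence (GRCm38). Capitals mark the glycine codons (GGN) of the repeat, 1 codon in every 3, and any glycine codon between them is in lower case.
Col1a1: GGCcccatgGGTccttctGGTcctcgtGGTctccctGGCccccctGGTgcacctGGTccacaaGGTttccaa
Col3a1: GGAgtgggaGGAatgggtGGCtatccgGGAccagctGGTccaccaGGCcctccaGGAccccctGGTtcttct
Col6a1: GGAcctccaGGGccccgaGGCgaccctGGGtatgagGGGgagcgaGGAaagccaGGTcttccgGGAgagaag
Col6a3: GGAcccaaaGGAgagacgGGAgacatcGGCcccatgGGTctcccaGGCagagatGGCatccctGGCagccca
The longest run held 338 consecutive glycine codons, each 3 codons apart, in Col1a1 and Col5a1, 339 in Col1a2 and Col5a2, 344 in Col3a1 and 337 in Col5a3. It held 87 in Col6a1 and in Col6a2, and 45 in Col6a3. The run took up 69.8% of the Col1a1 coding sequence and 25.5% of that of Col6a1. Col6a3 was the longest member, with 2677 codons against 1025 in Col6a1, and its longest run filled 5.04% of them. In types I, III and V the uninterrupted run is therefore most of the chain. In type VI it is a short stretch of a chain with globular regions. The run stops at any break in the repeat, so its length is not that of the whole helix.

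RNA was sequenced from whole inguinal fat pads, labelled as total subcutaneous mammary adipose, of female FVB mice. The mice were wild-type or FAP-/-, the label for loss of Fap, whose product, fibroblast activation protein, is a cell-surface protease of activated fibroblasts that cuts gelatin, the denatured form of collagen. Between 12 and 30 weeks of age they ate a low-fat diet (10% of calories) or an ingredient-matched high-fat diet (60%). On the low-fat diet there were 2 wild-type libraries (WT_LFD) and 3 from nulls (Null_LFD), and on the high-fat diet 2 wild-type (WT_HFD) and 3 from nulls (Null_HFD), described by the series as biological replicates, and the labels do not say which part of Fap is disrupted. The title of the series asks how FAP bears on adipocyte formation and on mTOR signalling that depends on the matrix. Values are given as TPM, a library's share of transcripts corrected for gene length; read numbers cannot be recovered from them and sequencing depth is unknown.

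The pads held adipocyte transcripts in every library, with the adipokine Adipoq at 752 to 3206 TPM, but 2 high-fat libraries stood apart. WT_HFD 2 and Null_HFD 3 carried B cell markers at a summed 392 and 951 TPM, against 7.26 to 13.9 TPM in the other 8, and are called lymph node-rich below. Each high-fat group has 1 of them. Fap itself measured 37.7 to 68.8 TPM in the 4 wild-type and 18.3 to 38.4 TPM in the 6 null libraries, so the library labelled Null_HFD 2 lay just above the library labelled WT_HFD 2. In whole tissue, fewer cells of a type and less RNA per cell cannot be told apart.

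Col3a1, the single chain of type III collagen, was the most abundant member, at a mean of 2400.5 ± 989 TPM (SD, n = 10). The type I chains came next, with Col1a1 at 393 ± 159 TPM and Col1a2 at 359.5 ± 106 TPM (SD, n = 10). Then came Col6a3 (175 TPM), Col6a1 (172 TPM), Col5a2 (137 TPM) and Col6a2 (128 TPM), and last Col5a3 (58.9 TPM) and Col5a1 (56.4 TPM). Only the steps from Col3a1 to Col1a1, from Col1a2 to Col6a3 and from Col6a2 to Col5a3 held in 10 of 10 libraries. Between the other neighbours the upper gene was above the lower one in 4 to 6 of 10 libraries, so their order did not stand out from the spread. Type III made up 53.6% to 66.3% of the summed TPM of the 9 members, and together the members took 0.192% (Null_LFD 1) to 0.683% (Null_HFD 2) of all TPM.

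The genes lie on 6 chromosomes (GRCm38, GENCODE M21). Col3a1 (chromosome 1, 45311538 to 45349706, plus strand) and Col5a2 (45374321 to 45503282, minus strand) are neighbours 24.6 kb apart, and Col6a1 (chromosome 10, 76708792 to 76726168) and Col6a2 (76595762 to 76623630), both on the minus strand, are 85.2 kb apart. Col6a3 lies far along chromosome 1 (90765923 to 90843971, minus strand), Col1a1 on chromosome 11 (94936224 to 94953042, plus strand), Col1a2 on chromosome 6 (4504814 to 4541544, plus strand) and Col5a3 on chromosome 9 (20770050 to 20815067, minus strand). Col5a1 (27886425 to 28039514, plus strand) is on chromosome 2, as is Fap, 34.5 Mb away.

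Promoter sequence from RefSeq (GRCm38.p6) was listed for 7 members with 8 start sites, and was searched on both strands over the 250 bases before the start for 3 short motifs that mark many promoters. CCAAT was found in 2 of the 8 windows against 33.8% of all 32851 promoters, GGGCGG in 5 of 8 against 32.7%, and TATAAA in 1 of 8 against 12.4%. The window of Col3a1, the most abundant member and the holder of the TATAAA match, and that of Col5a3, which holds a CCAAT match, show how unlike these promoters are in base composition (35.2% and 62.8% G or C), with every match in capitals.
Col3a1 (chr1:45311288-45311537, plus strand): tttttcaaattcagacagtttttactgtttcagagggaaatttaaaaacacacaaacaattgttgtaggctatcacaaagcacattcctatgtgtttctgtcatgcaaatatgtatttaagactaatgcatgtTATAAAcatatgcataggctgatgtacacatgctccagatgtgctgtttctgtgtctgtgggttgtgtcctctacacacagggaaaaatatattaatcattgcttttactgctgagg
Col5a3 (chr9:20815068-20815317, minus strand): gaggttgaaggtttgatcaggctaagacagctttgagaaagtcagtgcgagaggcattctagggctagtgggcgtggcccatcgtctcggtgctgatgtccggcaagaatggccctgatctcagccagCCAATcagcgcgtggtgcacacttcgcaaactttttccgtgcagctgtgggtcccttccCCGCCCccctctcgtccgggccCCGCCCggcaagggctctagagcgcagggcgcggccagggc
These matches are letters in a window and say nothing about which factors bind.

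On the high-fat diet the 3 type VI chains were the members whose genotypes did not overlap. Col6a1 measured 133 and 139 TPM in WT_HFD and 253, 319 and 173 TPM in Null_HFD libraries. Col6a2 measured 102 and 91.1 TPM against 177, 255 and 106 TPM. Col6a3, which carries the endotrophin fragment released from type VI collagen, measured 129 and 96.5 TPM against 219, 271 and 143 TPM. For each chain all 3 null libraries lay above both wild-type libraries, narrowly so for Col6a2, and the lowest null library was the lymph node-rich Null_HFD 3. No other member separated in this way, which makes 3 of 9 against 7.73% of all genes tested with null libraries higher. After median-of-ratios scaling Col6a2 overlapped (105 TPM in WT_HFD 1 and 100.05 TPM in Null_HFD 3), which leaves 2 of 9 (Col6a1 and Col6a3) against 8.76% of all genes. No member lay wholly lower in null libraries, where 7.78% of all genes did. The 3 type VI chains varied together over the 10 libraries, so they are not independent counts. On the log2 scale Pearson r was 0.951 for Col6a1 with Col6a2, 0.718 for Col6a1 with Col6a3 and 0.821 for Col6a2 with Col6a3.

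None of these differences passed the test over all genes. On the high-fat diet Col6a1 was 0.82 higher in null pads on the log2(TPM + 1) scale (SE 0.36, 95% interval 0.01 to 1.64, limma adjusted p = 1). Col6a3 was 0.87 higher (SE 0.36, interval 0.05 to 1.68, limma adjusted p = 1) and Col6a2 0.80 higher (SE 0.45, interval -0.22 to 1.81, limma adjusted p = 1). Before adjustment Col6a1 and Col6a3 had a limma p of 0.047 and 0.0388, so 2 of 9 members had an unadjusted p under 0.05, against 3.82% of all genes. Without both lymph node-rich libraries the differences were 1.09, 1.05 and 0.91 for Col6a1, Col6a2 and Col6a3, with 1 wild-type library left. Without Null_HFD 2, the highest library, they were 0.62, 0.50 and 0.66.

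On the low-fat diet the same chains did not separate. Col6a1 measured 118 and 123 TPM in WT_LFD and 98.3, 129 and 232 TPM in Null_LFD libraries (log2 difference 0.25, SE 0.36, 95% interval -0.56 to 1.06). Col6a3 measured 140.3 and 204 TPM against 118, 194 and 235 TPM (0.05, SE 0.36, interval -0.76 to 0.86). Col6a2 measured 91.9 and 117 TPM against 69.0, 88.2 and 188 TPM (0.01, SE 0.45). In each case Null_LFD 3 was the highest and Null_LFD 1 the lowest of the 5 low-fat libraries, so the null group spanned the wild-type values. No member separated the genotypes on this diet, where 19.1% of all genes lay wholly higher and 6.3% wholly lower in null libraries, nor over all 10 libraries (0.543% and 0.378%). Whether the genotype difference of the chains itself differed between diets was tested as an interaction, which gave 0.57 for Col6a1 (SE 0.51), 0.78 for Col6a2 (SE 0.63) and 0.81 for Col6a3 (SE 0.51), each with a limma adjusted p of 1. A separation on 1 diet and not on the other is thus not shown to be a difference between the diets.

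**Figure D1:**
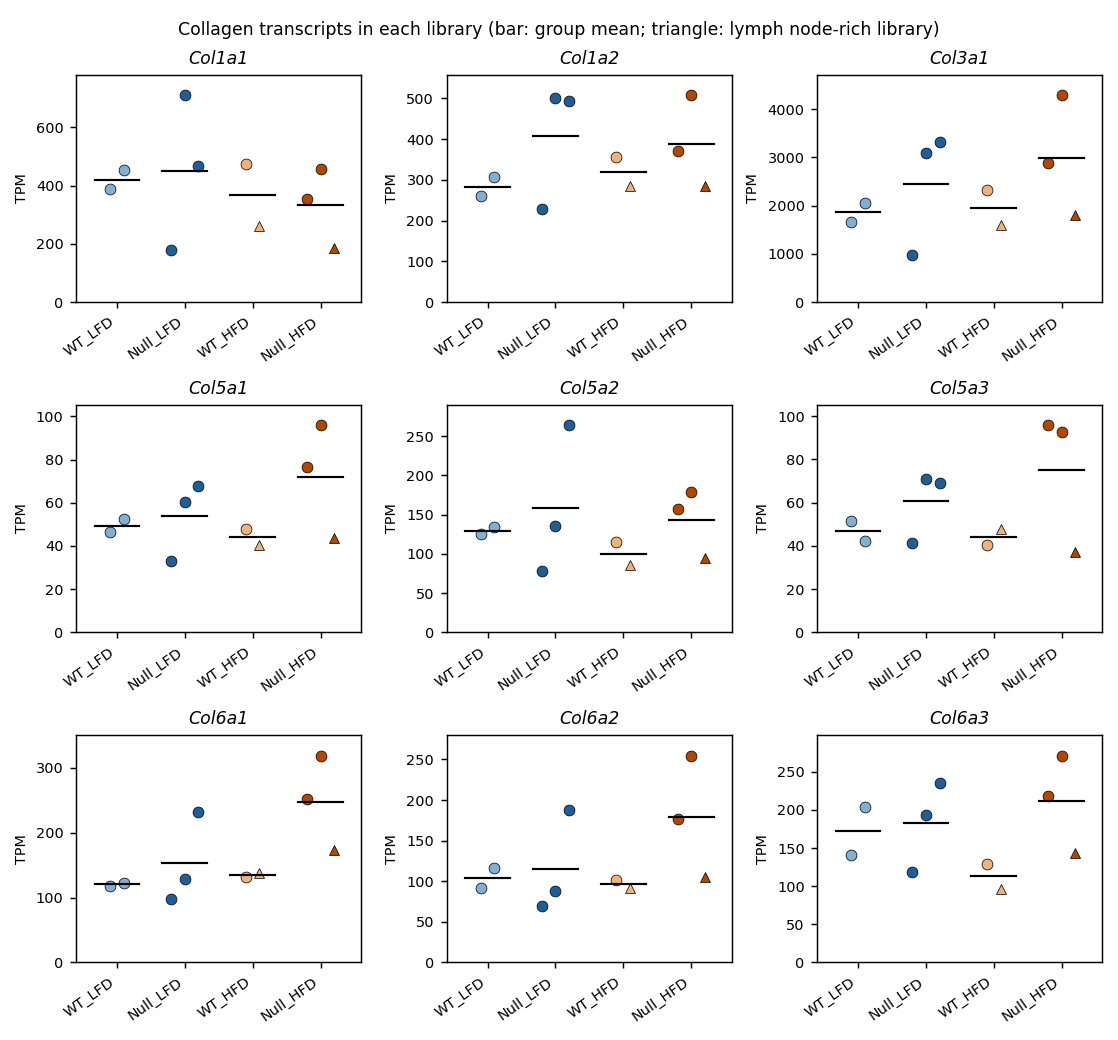
TPM (vertical axes, starting at 0) of the 9 collagens in each library, by genotype and diet group. Points are libraries, triangles the lymph node-rich libraries WT_HFD 2 and Null_HFD 3, and bars group means; for Col6a1, Col6a2 and Col6a3 all Null_HFD points lie above both WT_HFD points, which for Col6a2 is lost after median-of-ratios scaling.

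The chains of type I collagen, the main load-bearing fibril protein, did not share a direction between genotypes: Col1a1 was lower and Col1a2 higher in null pads on average, neither past the test. Col1a1 measured 388 and 453 TPM in WT_LFD, 177, 711 and 467 TPM in Null_LFD, 473 and 262 TPM in WT_HFD and 355, 457 and 186 TPM in Null_HFD libraries. The highest and the lowest of all 10 values were both from Null_LFD, and the groups overlapped. Col1a1 was the only member with a negative genotype difference on average (-0.14, SE 0.41, 95% interval -1.06 to 0.78), and that difference turned positive without Null_LFD 1 (0.14), WT_HFD 1 (0.07) or Null_HFD 3 (0.04). Col1a2, its partner chain in the type I helix, measured 260.3 and 307 TPM in WT_LFD, 229, 502 and 493 TPM in Null_LFD, 356 and 285 TPM in WT_HFD and 370.2, 508 and 285 TPM in Null_HFD libraries (average difference 0.34, SE 0.27, interval -0.26 to 0.94). Its average difference stayed positive, from 0.23 to 0.53, when single libraries were left out.

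Col3a1, which makes the fine reticular fibres of soft tissue, measured 1664 and 2063 TPM in WT_LFD and 976, 3084 and 3310.2 TPM in Null_LFD libraries. On the high-fat diet it gave 2332 and 1589.8 TPM for WT_HFD and 2886, 4290.3 and 1808 TPM for Null_HFD libraries. Null_LFD 1 was low and Null_LFD 2, Null_LFD 3 and Null_HFD 2 were high, and the genotypes overlapped on both diets. The difference was 0.22 on the low-fat diet (SE 0.59, 95% interval -1.12 to 1.55) and 0.55 on the high-fat diet (SE 0.59, interval -0.79 to 1.89).

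Type V chains sit in the core of type I fibrils and limit their diameter, and 2 of them, Col5a1 and Col5a3, had the lowest levels. Col5a1 measured 46.4 and 52.3 TPM in WT_LFD, 33.05, 60.3 and 67.6 TPM in Null_LFD, 48.0 and 40.5 TPM in WT_HFD and 76.7, 95.8 and 43.7 TPM in Null_HFD libraries. Col5a3, the chain of the less common type V heterotrimer, measured 51.3 and 42.4, 41.5, 70.8 and 69.3, 40.4 and 47.9, and 95.8, 92.5 and 37.3 TPM in the same order of groups. On the high-fat diet Null_HFD 1 and Null_HFD 2 were the highest of the 5 libraries for both chains, while Null_HFD 3 fell between the wild-type values for Col5a1 and below them for Col5a3. The high-fat differences were 0.62 for Col5a1 (SE 0.37, 95% interval -0.21 to 1.46) and 0.64 for Col5a3 (SE 0.40, interval -0.27 to 1.56). Col5a2 followed a different library: it measured 126 and 134 TPM in WT_LFD, 77.7, 136 and 264 TPM in Null_LFD, 115 and 85.3 TPM in WT_HFD and 157, 178 and 94.4 TPM in Null_HFD libraries, with its highest value in Null_LFD 3.

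Over the whole group, genotype differences on the high-fat diet had a median of 0.625 over the 9 members, with 8 of 9 higher in null pads, against a median of 0.016 over all genes, of which 52.1% were higher. On the low-fat diet the median was 0.117, with 8 of 9 higher, against 0.146 over all genes, of which 66.9% were higher. The low-fat median of all genes moved to 0.0137 when libraries were rescaled by median-of-ratios size factors, and only 4 of 9 members were then higher (median -0.037). The direction on the low-fat diet therefore depended on the scaling, and that on the high-fat diet did not (median 0.621, 8 of 9 higher). The members varied together over the 10 libraries (Pearson r of 0.206 to 0.951 over 36 pairs, median 0.765), so counts of members are not independent. Averaged over the diets the member median was 0.383 against 0.084 over all genes, of which 63.5% were higher. Single libraries moved these medians. The low-fat one was -0.138 without Null_LFD 3 and 0.522 without Null_LFD 1, the high-fat one 0.386 without Null_HFD 2 and 0.944 without Null_HFD 3, and the average one 0.234 without Null_HFD 2 and 0.552 without Null_LFD 1.

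By limma at an adjusted p of at most 0.05, 0 of 9 members were called in any of the 7 comparisons. For genotype this compares with 0% of all genes on average over the diets, 0% on the low-fat diet and 0.0118% on the high-fat diet. For diet it compares with 0% when both genotypes are averaged, 0% in wild-type pads and 0.00591% in null pads, and with 0% for the interaction. At an unadjusted p under 0.05, the counts were 0 of 9 for genotype on average (4.19% of all genes) and 0 of 9 on the low-fat diet (4.43%). They were 0 of 9 for diet on average (9.69%), 0 of 9 within wild type (5.61%), 1 of 9 within null (6.67%) and 0 of 9 for the interaction (4.14%). The intervals were wide, so these results do not show that the collagens were alike in the groups.

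**Figure D2:**
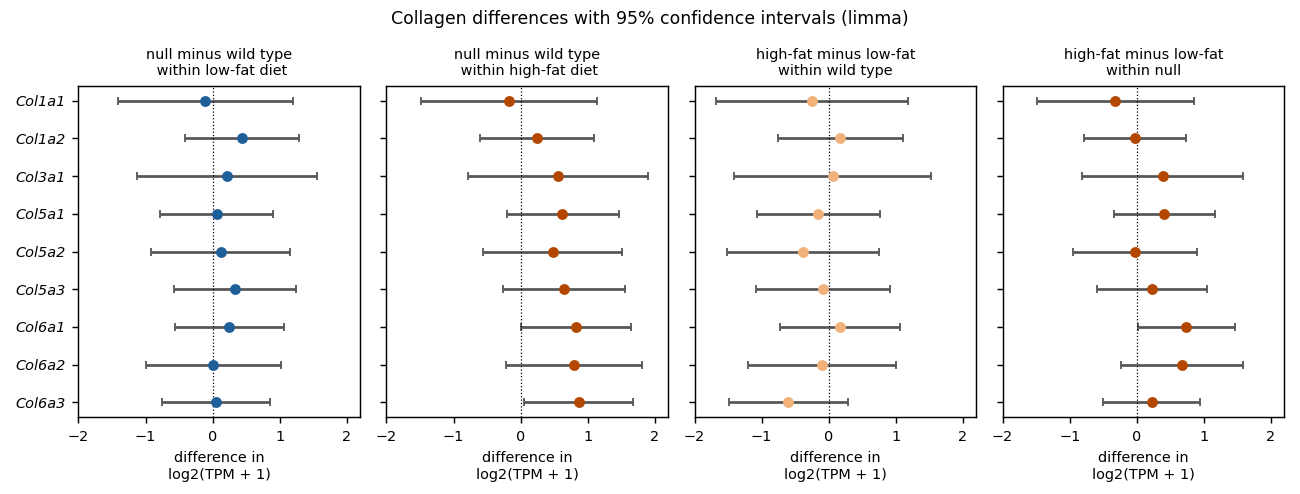
Difference in log2(TPM + 1) (horizontal axes) of each collagen in 4 comparisons, as points with 95% confidence intervals from limma; the dotted line marks 0. The intervals of Col6a1 and Col6a3 on the high-fat diet and of Col6a1 between the diets in null pads begin just above 0, and no difference passed after adjustment over all genes.

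Diet was compared within each genotype to ask how the collagens followed the high-fat diet. The low-fat and high-fat null groups serve in both the diet and the genotype comparisons, so these are not independent of each other. In null pads Col6a1 was 0.74 higher on the high-fat diet (SE 0.32, 95% interval 0.02 to 1.47, limma p of 0.0459 before adjustment, limma adjusted p = 0.744). Col6a2 was 0.68 higher (SE 0.40, interval -0.23 to 1.58, limma adjusted p = 0.797) and Col6a3 0.22 higher (SE 0.32, interval -0.51 to 0.94, limma adjusted p = 0.894). No member separated the diets in null pads in either direction, where 6.6% of genes lay wholly higher and 4.49% wholly lower on the high-fat diet, nor over both genotypes together (1.59% and 0.413%).

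In wild-type pads no type VI chain passed the test for diet. Col6a1 was slightly higher on the high-fat diet, from 118 and 123 TPM to 133 and 139 TPM, while Col6a3 was lower, from 140.3 and 204 TPM to 129 and 96.5 TPM (log2 difference -0.60, SE 0.39, interval -1.48 to 0.29), and Col6a2 overlapped, with 91.9 and 117 TPM against 102 and 91.1 TPM (-0.10, SE 0.49). Col5a2 was also lower, from 126 and 134 TPM to 115 and 85.3 TPM. With 2 libraries against 2, separation is common: 1 of 9 members (Col6a1) lay wholly higher against 33.7% of all genes, and 2 of 9 (Col5a2 and Col6a3) wholly lower against 11.5%. After median-of-ratios scaling these counts were 0 of 9 (21.5%) and 3 of 9 (21.2%). All genes had a median of 0.197 in this comparison, which median-of-ratios scaling moved to 0.0168, and with it the member median went from -0.103 to -0.314 and Col6a1 to -0.04. The Col6a1 difference in wild-type pads was thus no larger than the shift of all genes. The same scaling moved the median of all genes from 0.11 to -0.0056 for diet on average and from -0.131 to -0.0033 for the interaction.

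Ratios between chains within a library do not depend on how libraries are scaled. For some chains the ratio to Col1a1 was highest in Null_HFD libraries. The ratio of Col3a1 to Col1a1 was 4.29 and 4.56 in WT_LFD, 5.51, 4.34 and 7.09 in Null_LFD, 4.93 and 6.06 in WT_HFD and 8.13, 9.38 and 9.75 in Null_HFD libraries. The 3 Null_HFD values were the highest of the 10. The ratio of Col6a1 to Col1a1 was 0.303 and 0.272 in WT_LFD, 0.555, 0.182 and 0.497 in Null_LFD, 0.280 and 0.529 in WT_HFD and 0.711, 0.697 and 0.933 in Null_HFD libraries, again with Null_HFD highest. Col5a1 and Col6a2 also had their 3 highest ratios to Col1a1 in Null_HFD libraries, at 0.209 to 0.235 and 0.497 to 0.569. Elsewhere these reached at most 0.186 and 0.402. The remaining chains did not follow. For Col5a2 the highest ratio to Col1a1 was in Null_LFD 3 (0.565). Null_LFD 1 exceeded 2 of the 3 Null_HFD libraries for Col1a2 (1.29), for Col6a3 (0.667) and for Col5a3 (0.234). Type I chains made up 14.9% to 16.4% of the summed TPM of the members in Null_HFD and 18.0% to 24.4% in the other 7 libraries.

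Counted over the members, the ratio to Col1a1 was higher in all Null_HFD than in both WT_HFD libraries for 7 of 8 chains, against 4.76% of all genes, and lower for none (2.87%). The exception was Col1a2, whose ratio to Col1a1 was 0.753 and 1.09 in WT_HFD and 1.04, 1.11 and 1.54 in Null_HFD libraries. Within null pads the ratio was higher on the high-fat diet without overlap for 4 of 8 chains (Col3a1, Col5a1, Col6a1 and Col6a2), against 1.46% of all genes, and lower for none (1.19%). On the low-fat diet the genotypes separated for 1 of 8 chains (Col1a2, 0.671 and 0.678 in wild-type against 1.29, 0.706 and 1.06 in null libraries), where the background was 6.27% (and 0.98% for lower ratios, which no member had). In wild-type pads the diets separated for 2 of 8 (Col1a2 and Col3a1), where it was 23.3% (4.09% for lower ratios, again with no member). All these ratios share the Col1a1 value of a library as denominator, so they are not independent counts, and no test was made of them. The lymph node-rich WT_HFD 2 had higher ratios than WT_HFD 1 for all 8 chains, and Null_HFD 1 and Null_HFD 2, which are not lymph node-rich, lay above both for the 7 chains.

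Within type VI, the ratio of Col6a3 to Col6a1 separated the diets, while that of Col6a2 to Col6a1 did not; neither was tested. The ratio of Col6a3 to Col6a1 was 1.19 and 1.65 in WT_LFD, 1.203, 1.497 and 1.01 in Null_LFD, 0.973 and 0.696 in WT_HFD and 0.866, 0.850 and 0.827 in Null_HFD libraries. All 5 high-fat values lay below all 5 low-fat values, in both genotypes, with a narrow gap between Null_LFD 3 and WT_HFD 1. Col6a3 was 1 of 8 members to fall wholly below in its ratio to Col6a1, against 1.09% of all genes, and no member lay wholly above (0.0236%). The ratio of Col6a2 to Col6a1 varied less, from 0.609 to 0.948, and the diets overlapped. The ratio of Col5a2 to Col5a1 ran from 2.25 to 3.90 on the low-fat and from 1.86 to 2.40 on the high-fat diet, which overlap.

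**Figure D3:**
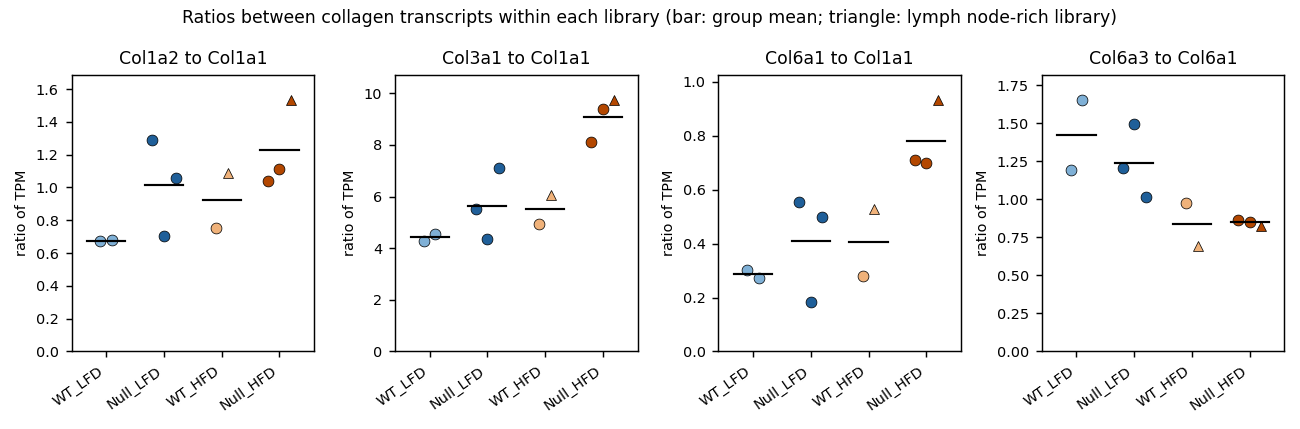
Ratios of TPM (vertical axes, starting at 0) between collagen transcripts within each library, by group; points are libraries, triangles the lymph node-rich libraries, and bars group means. Null_HFD libraries hold the 3 highest ratios of Col3a1 and of Col6a1 to Col1a1, and the 5 high-fat libraries the 5 lowest ratios of Col6a3 to Col6a1.

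Markers of other cell types also varied between these libraries. Mammary luminal epithelium markers (8 of 8 present) lay lower in all Null_HFD (0.02, -0.55 and -2.21) than in both WT_HFD libraries (0.66 and 0.09), the comparison in which the type VI chains separated. Their summed level was 464 to 1056 TPM in WT_LFD, 1522 to 2969.6 TPM in Null_LFD, 1162 to 1505 TPM in WT_HFD and 294 to 979 TPM in Null_HFD libraries. The Schwann cell and the fibroblast and adipocyte progenitor lists were also lower by mean in all Null_HFD than in both WT_HFD libraries. Their summed levels overlapped. The progenitor means were narrowly apart, at 0.09, 0.05 and -0.33 in Null_HFD against 0.11 and 0.21 in WT_HFD libraries. The list of fibroblast and adipocyte progenitor markers (10 of 10 present) lay between -0.33 (Null_HFD 3) and 0.21 (WT_HFD 2) around its mean on the log2 scale, while the mean of the 9 collagens ran from -0.73 (Null_LFD 1) to 0.74 (Null_HFD 2). Its summed level was 1373 to 1387 TPM in WT_LFD, 1417 to 1533 TPM in Null_LFD, 1676 to 1787 TPM in WT_HFD and 1163 to 1707 TPM in Null_HFD libraries. Members of this list did not move together. In Null_LFD 3, for example, Pdgfrb (54.7 TPM) and Mfap5 (204 TPM) were at their highest of the 10 libraries and Dpep1 (40.8 TPM) at its lowest. A narrow range of the list mean therefore does not show that fibroblast content was steady. Of the myofibroblast markers (7 of 8 present), the list was highest in Null_LFD 2 and Null_LFD 3 (0.48 in both), where the collagens were at 0.23 and 0.53, but was at -0.15 in Null_HFD 1, where they were at 0.40. The mature adipocyte list (13 of 13 present) was at 0.45 and 0.56 in Null_HFD 1 and Null_HFD 2, the libraries with the highest Col6a1. It was at -0.95 in Null_HFD 3, and at 0.21 and -0.07 in WT_HFD 1 and WT_HFD 2. Other libraries differed: the list was at -0.19 in Null_LFD 3, which had the next highest Col6a1 (232 TPM), and at 0.31 in WT_LFD 2 (123 TPM). The summed adipocyte level was 24381 to 36877 TPM in WT_LFD, 17408 to 28559 TPM in Null_LFD, 27819 to 32842 TPM in WT_HFD and 12593 to 36081 TPM in Null_HFD libraries. No marker present in the files was at 0 in every library. Skeletal muscle markers (10 of 10 present) were high in Null_LFD 1 (2.26), the library with the lowest collagens, but also in Null_LFD 2 (1.70) and in Null_HFD 2 (1.26), the library with the highest, and low in WT_HFD 2 (-3.10) and Null_HFD 3 (-3.99). The part of cell content in the collagen differences was not tested.

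**Figure D4:**
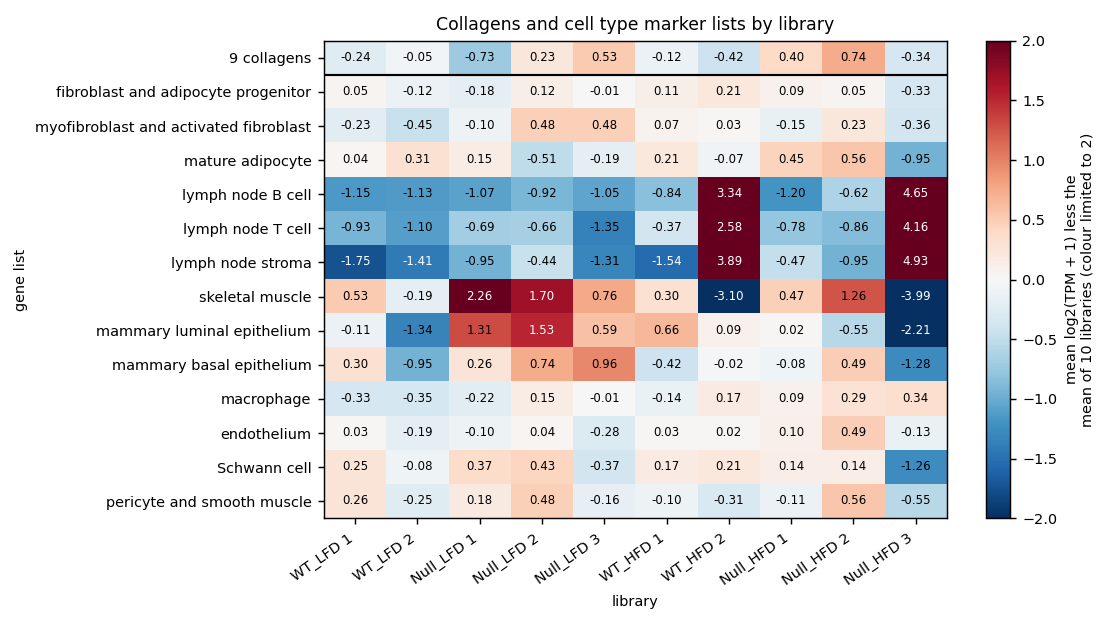
Mean log2(TPM + 1) of the 9 collagens and of 13 cell type marker lists (rows) in each library (columns), less the mean of the 10 libraries; colour is limited to 2 on either side and each cell prints its value. The fibroblast and adipocyte progenitor row stays between -0.33 and 0.21, and the myofibroblast row runs from -0.45 to 0.48. Lymph node rows stand out in WT_HFD 2 and Null_HFD 3.

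The genes that make, process, cut and sense collagen were taken as a list of 62, of which 58 were tested. Col2a1, Mmp8 and Mmp13 stayed under the limit on low values, and no row was found under the symbol P3h1. By limma 0 of 58 were called in any of the 7 comparisons, and 5, Fap among them, had an unadjusted p under 0.05 for genotype on average (4.19% of all genes) and 4 for diet on average (9.69%). Of 12 hydroxylation, glycosylation and folding genes tested, 12 were higher in null pads on average. Their median was 0.12, close to the 0.084 of all genes, of which 63.5% were higher. Colgalt1, which adds galactose to hydroxylysine, differed by 0.45 (SE 0.19, limma p of 0.0433 before adjustment), and measured 32.5 and 35.7 TPM in WT_LFD, 38.4, 58.5 and 64.6 TPM in Null_LFD, 32.7 and 51.6 TPM in WT_HFD and 49.9, 44.8 and 58.0 TPM in Null_HFD libraries.

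Serpinh1, the procollagen chaperone HSP47, spanned 20.1-fold from its lowest to its highest library, against at most 4.39-fold for the 9 collagens. It measured 65.8 and 20.8 TPM in WT_LFD, 75.7, 8.93 and 179 TPM in Null_LFD, 41.0 and 19.4 TPM in WT_HFD and 149, 97.2 and 118 TPM in Null_HFD libraries. On the high-fat diet its null libraries lay above its wild-type ones, as did those of 7.73% of all genes. Its highest and lowest values were both from Null_LFD, and the lowest, in Null_LFD 2, fell in the library with the highest Col1a1. Its average genotype difference was 1.24 (SE 0.72, 95% interval -0.39 to 2.87, limma adjusted p = 0.98). Among procollagen processing genes, 6 of 7 were higher in null pads on average (median 0.26), where 63.5% of all genes were higher. Pcolce2, an enhancer of the C-propeptide protease, was 0.47 higher on the high-fat diet (SE 0.16, limma p of 0.0172 before adjustment). The fibril-associated collagens, which decorate the surface of fibrils, did not go one way: 5 of 5 were higher in null pads on the low-fat diet (median 1.12, where 66.9% of all genes were higher) and 1 of 5 on the high-fat diet (median -0.60, 52.1%). By limma 0 of 5 were called for the interaction, with 2 at an unadjusted p under 0.05 (4.14% of all genes). Col16a1, for example, measured 60.2 and 39.4 TPM in WT_LFD, 65.8, 148 and 126 TPM in Null_LFD, 66.2 and 105 TPM in WT_HFD and 61.5, 83.7 and 31.2 TPM in Null_HFD libraries. The small leucine-rich proteoglycans that coat fibrils went different ways, with decorin (Dcn) at -0.52 (SE 0.22) and biglycan (Bgn) at 0.29 (SE 0.13) in null pads on average.

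Of the genes for cleavage and uptake, 5 of 9 tested were higher and 4 lower in null pads on average, Fap itself among the latter. Ctsk, the collagen-cutting protease cathepsin K, differed by 0.60 (SE 0.24, limma adjusted p = 0.98). It measured 29.0 and 31.1 TPM in WT_LFD against 65.3, 104 and 56.3 TPM in Null_LFD libraries. On the high-fat diet it gave 57.5 and 56.4 TPM for WT_HFD and 84.4, 50.6 and 39.4 TPM for Null_HFD libraries. The low-fat groups were thus apart, where 19.1% of all genes lay wholly higher in null libraries, and the high-fat groups overlapped. This does not show a difference between the diets. Of the collagen receptors, 4 of 9 were higher and 5 lower, with Ddr1, a collagen-activated receptor tyrosine kinase found mainly on epithelium, at 0.73 (SE 0.30). Itga1, the integrin chain that binds type IV and type I collagen, was 0.45 higher on the high-fat diet (SE 0.15, limma p of 0.016 before adjustment). The crosslinking enzymes of the Lox family split, 2 of 5 higher and 3 lower. The other type VI chains were scarce, with Col6a4, Col6a5 and Col6a6 at 0.0701 to 5.16 TPM over all libraries.

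Genes were ranked by how like their profile was to the mean of the 9 collagens, by Pearson r over the 10 libraries. The 11062 ranked genes averaged 5 TPM or more, with the members, pseudogenes and genes under predicted, clone or locus names left out. The most alike were Yif1a (0.933), S100a16 (0.926), Ptk2, which encodes focal adhesion kinase (0.923), Eif2b3 (0.914), Myl6 (0.909) and Vcl, which encodes vinculin (0.901). Vcl, for example, measured 80.4 and 107 TPM in Null_HFD 1 and Null_HFD 2 and 52.0 to 79.9 TPM elsewhere. Over the 8 libraries without the lymph node-rich pair these 6 genes had r between 0.893 and 0.936 and ranked 15 to 58, and the leading genes were instead Cdc25b (0.978), Haus4 (0.969), Rnaseh1 (0.960), Anxa1 (0.959), S100a4 (0.958) and Kif3b (0.953). The points share libraries and many genes were ranked, so these values are descriptions.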

How the data were processed

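Ribosomal RNA-depleted total RNA was sequenced from 10 fat pads. The submitters' processing notes name kallisto, limma and the GRCm38 build, without versions or the step each served. The authors deposited log2 values per gene symbol, taken here as log2(TPM + 1) because the lowest is 0 and the back-transformed TPM sum to 946188 to 954515 per library. The 1 line without a symbol, 0.00544% to 0.0108% of TPM, was left out. A gene was tested if 2 or more libraries reached 1 TPM. The model, fitted in limma 3.58.1 under R 4.3.3, had 4 group means over all 10 libraries, with 6 residual degrees of freedom, a pseudocount of 1 and a variance prior following the mean. Tests were two-sided, with Benjamini-Hochberg adjustment over 16932 genes at 0.05. Fold changes on this scale understate those of low genes. No 2 libraries shared over 2.34% of values. The procedure was tested on simulated data.

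The members, lists and tests were chosen with earlier results of these data known. The named genes are all members, Fap, the pathway genes of smallest p in each role (a part is given) and the genes of most similar profile; ratio counts without overlap, and P3h1, Col2a1, Mmp8, Mmp13 and Adipoq, were chosen after values were seen. Alternatives changed the pseudocount (0.1 or 5), filter (none or 5 TPM), scaling, variance prior, replicate block and libraries included.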

Additional observations from a re-analysis of the deposited data

How the results depend on the processing

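Over 51 member differences and 18 alternatives, 868 of 918 values kept their direction, 50 changed sign and none was called by limma (lowest adjusted p = 0.473). The 51 leave out the fibrillar chains for diet on average and for the interaction. Counting all 9 members, 7 changed sign in at least 1 alternative for diet on average and 4 for the interaction. The high-fat genotype differences kept their sign in every alternative except for Col1a1 (-0.6 to 0.25 when single libraries were left out). The cause of the other sign changes was not tested. Median-of-ratios scaling turned the low-fat genotype differences of Col5a1, Col5a2, Col6a2 and Col6a3 to -0.09, -0.04, -0.14 and -0.1, and the wild-type diet differences of Col1a2, Col3a1 and Col6a1 to -0.04, -0.16 and -0.04. Without WT_HFD 2 and Null_HFD 3 together, Col6a3 for diet on average turned to 0.04, Col1a1 within wild type to 0.17, and Col1a1, Col1a2 and Col5a2 within null to 0.05, 0.17 and 0.25, while 8 of 9 members were wholly higher in null high-fat pads, a count chosen after seeing the data (38.4% of all genes), as was that after median-of-ratios scaling (2 of 9).

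Leaving out single libraries moved Col1a1 for genotype on average from -0.36 to 0.14. On the low-fat diet the ranges were -0.54 to 0.46 (Col1a1), -0.09 to 0.79 (Col3a1), -0.14 to 0.37 (Col5a1), -0.33 to 0.54 (Col5a2), -0.09 to 0.52 (Col6a1), -0.41 to 0.31 (Col6a2) and -0.22 to 0.33 (Col6a3), with the highest always without Null_LFD 1. For diet within wild type they were -0.67 to 0.17 (Col1a1), -0.22 to 0.33 (Col3a1), -0.22 to 0.05 (Col5a3) and -0.28 to 0.07 (Col6a2). Within null they were -0.89 to 0.11 (Col1a1), -0.4 to 0.17 (Col1a2), -0.18 to 0.71 (Col3a1), -0.45 to 0.43 (Col5a2), -0.02 to 0.67 (Col5a3) and -0.06 to 0.47 (Col6a3), with the lowest always without Null_LFD 1.

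Counts of genes called over the whole table were 0, 0, 2, 0, 0, 1 and 0 for genotype on average, low-fat and high-fat, diet on average, in wild type and in null, and the interaction. They moved to 15, 2, 18, 3, 5, 0 and 3 with no filter. A pseudocount of 0.1 gave 3, 5 and 1 for genotype on average, low-fat and high-fat and 0 for diet in null, and a pseudocount of 5 gave 1 for high-fat genotype and 0 for diet in null. No variance trend gave 5 and 1 for genotype on average and low-fat, 2 for diet in wild type and 0 in null. Without both lymph node-rich libraries, high-fat genotype gave 0 and diet in null 2. Leaving out single libraries gave 0 to 2, 0 to 1, 0 to 3, 0 to 2, 0 to 2, 0 to 2 and 0 to 2 in that order.

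Replicate numbers were shared between groups. Deviations of same-numbered libraries had correlations of -0.346 to 0.412, with 2 of 13 pairs over 0.1. For different numbers they were -0.502 to 0.502, with 2 of 24 pairs over 0.1. In a group of 2 libraries the deviations are exact opposites. The pairs are therefore not independent, and they cannot show whether libraries were paired. With the replicate block, the low-fat genotype differences of Col1a1 and Col6a2 were 0.01 and -0.03, and 3 genes were called for diet in null. TPM keep no read numbers, so what depth limits could not be judged.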
